A study of Mus musculus with 26 samples.

Results

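Gastruloids of 5 mouse lines were compared at 144h and at 120h after aggregation. The comparison used the 10 libraries with the label ISML_second, 1 per line and stage, out of 26 libraries in the series. All 5 lines carry the deletion written HoxB Del/Del(i9-13). The first line, Del(i9-13), has that deletion alone. Ins(CBS5-10) has the deletion and the insertion Ins(CBS5-10). Ins:Del(CBS8-10) has the deletion, the insertion and Del(CBS8-10). Inv clone 1 has the deletion, the insertion and Inv(CBS5-10), and is labelled as 1 clone. Inv:Del(CBS7-10) has the deletion, the insertion, the inversion and Del(CBS7-10). No library without the deletion was used here, so every value below belongs to gastruloids that carry it. The labels name neither the parent cell line nor the number of gastruloids in a library. The series concerns CTCF-dependent insulation of Hoxb13, and the comparison below asks what changed in all genes between the 2 stages and how far the 5 lines changed alike.

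Gastruloids are aggregates of embryonic stem cells that elongate along a head to tail axis in culture. The growing end holds a tailbud-like zone, kept by FGF and Wnt signalling, whose cells give rise to presomitic mesoderm and to the neural tube. Presomitic mesoderm is cut into somites by a clock built on Notch and FGF signalling. Neural tube progenitors later leave division as neurons under proneural transcription factors. Hox genes are switched on in the order of their place in each cluster and give cells their position along the axis.

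The 10 libraries held 19942377 to 25411986 counts, so 3 counts stood for 0.117 to 0.163 CPM, the counts scaled to the size of each library. No pair of libraries agreed within sampling noise, since the smallest chi-square per degree of freedom between libraries of a stage was 3.18. The Y-linked genes Ddx3y, Uty and Eif2s3y were at 0 in Inv clone 1 and in Inv:Del(CBS7-10) at both stages, and were detected in the other 3 lines at both stages. The 2 libraries of each line therefore matched in this respect. The 144h library of Inv clone 1 stood apart. Mitochondrially encoded genes made up 0.0864% of its counts, against 0.645 to 0.972% in the other 144h libraries and 0.915 to 1.09% at 120h. Its log2 levels differed from the mean of the other 144h libraries with an SD of 0.697 over genes, against 0.332 to 0.376 for the other 4. Counts of genes called are given below with all 5 lines and then without Inv clone 1. What set this library apart was not tested.

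A total of 15011 genes were tested, with the line as a term, so that each gene was compared within lines. Called means an adjusted p under 0.05 in edgeR's quasi-likelihood test. At 144h 1388 genes were higher (9.25% of those tested) and 892 were lower (5.94%), which is 15.2% in either direction. At least 2-fold changes were called for 606 higher and 285 lower genes, and at least 8-fold changes for 89 higher and 7 lower genes. A gene could pass the filter through its level at 1 stage alone. The genes called at least 2-fold higher and lower had medians of 1.31 and 4.13 CPM at 120h, against 22.3 CPM over all tested. The excess of large rises over large falls is therefore not read as a result. The levels of the 2 stages did not overlap for 1815 of the 2280 called genes (79.6%). Not overlapping means that all 5 libraries of one stage lay above all 5 of the other. Among all 15011 genes tested 2654 did not overlap, and the test itself selects for such genes. Without Inv clone 1, 4831 of 15067 genes were called (32.1%). Of these, 2474 were higher (16.4%) and 2357 were lower (15.6%). That set held 2229 of the 2280 genes in the same direction, which is 97.8% of them. Leaving out one of the other lines gave fewer calls: 1366 without Del(i9-13), 1632 without Ins(CBS5-10), 1365 without Ins:Del(CBS8-10) and 1413 without Inv:Del(CBS7-10). These held 59.1%, 69.1%, 58.9% and 60.9% of the 2280 calls in the same direction. The 5 lines are separate lines and not repeat cultures of 1 line. The error terms below thus reflect how unevenly the lines changed, mixed with variation between cultures and libraries. With 1 library per line and stage these cannot be told apart. The lines also share edits, and how far they are independent of each other was not tested.

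All 5 lines moved the same way for 4927 of the 15011 genes tested (32.8%), and the 4 lines without Inv clone 1 did so for 47.2%. The signs of 4 lines match more easily than those of 5, so these shares cannot be set against each other. Among the 2280 called genes the 5 lines moved the same way for 2245 (98.5%), a share that the test itself selects for, and among the 12731 genes not called for 2682 (21.1%). Each line's log2 ratio of 144h to 120h was set against the mean ratio of the other 4 lines across the 15011 genes. Pearson's r was 0.803 for Del(i9-13), 0.748 for Ins(CBS5-10), 0.790 for Ins:Del(CBS8-10), 0.577 for Inv clone 1 and 0.781 for Inv:Del(CBS7-10). Genes are not independent replicates, so these are descriptions with no test. Of the called genes in which a single line went the other way, Inv clone 1 was that line for 20, 14 of them called higher and 6 called lower. Ins(CBS5-10) was that line for 1 gene called higher and 8 called lower, and each other line for at most 2.

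**Figure D1:**
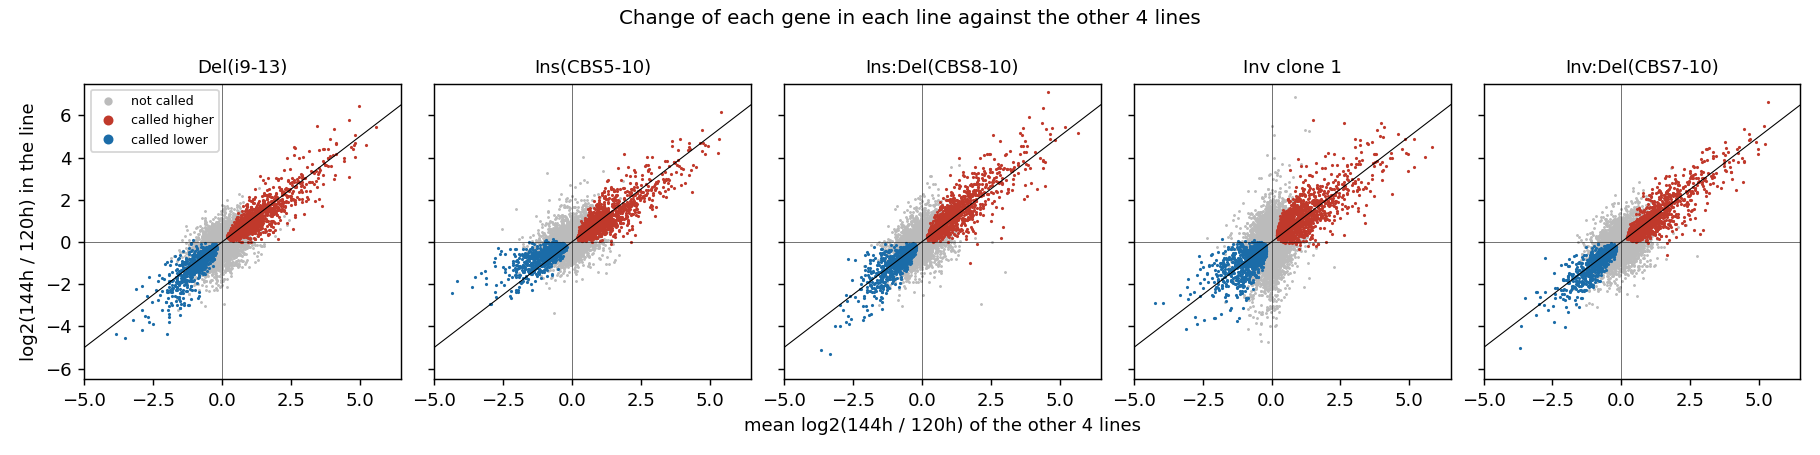
Each panel plots 1 line's log2 ratio of 144h to 120h (vertical axis) against the mean log2 ratio of the other 4 lines (horizontal axis), with 1 point per gene and the black line marking equal change. Genes called higher (red) and lower (blue) lie along the line in all 5 panels, genes not called (grey) spread farthest in Inv clone 1, where r was 0.577, and the slope was lowest in Ins(CBS5-10), at 0.715.

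The size of the change varied over the lines. The slope of a line's ratios on the mean of the others was 0.715 in Ins(CBS5-10) and 0.875 to 0.926 in the other 4 lines. Ins(CBS5-10) had the smallest fall of the 5 lines for 44.3% of the 892 genes called lower, and the smallest rise for 29.3% of the 1388 genes called higher. Its median fall over the genes called lower was 0.46 on the log2 scale, against 0.67 to 0.73 in the other lines. A test of each line's change against the mean of the other 4, fitted on all 26 libraries, called 0 of 17769 genes (0%) in each of the 5 lines with edgeR, and 0 with limma-voom. At an unadjusted p under 0.05 the counts were 197 for Del(i9-13), 319 for Ins(CBS5-10), 153 for Ins:Del(CBS8-10), 2062 for Inv clone 1 and 161 for Inv:Del(CBS7-10). That fit used every library of a line. Del(i9-13), Ins(CBS5-10) and Inv clone 1 thus had further libraries at the earlier stage, with other library labels. Inv clone 1 also had its ISML_third library at the later stage, so its change there is not that of the ISML_second pair alone. If no line differed and p-values were evenly spread, a share of about 0.05 of the 17769 genes would fall under 0.05. The counts lay below that share in the 4 lines other than Inv clone 1, and above it in Inv clone 1. Low counts in those 4 lines are thus not read as lines changing alike. On simulated counts, 50 genes were given a 2-fold difference in the change of Ins(CBS5-10), and the test recovered 8. Of 50 given a 4-fold difference it recovered 33. A gene that was not called here is not thereby shown to change alike in the 5 lines. Outside Inv clone 1, each line had 1 library at the later stage.

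Genes of the tailbud and of presomitic mesoderm fell. Of 19 tested regulators of the tailbud and of neuromesodermal progenitors, 14 were lower and 2 were higher, with a median log2 change of -0.94 against -0.01 over all genes tested. Of 22 genes of presomitic mesoderm and the segmentation clock, 16 were lower and 1 was higher, with a median of -1.38. Without Inv clone 1 these counts were 8 lower and 2 higher for the first list, and 18 lower and 1 higher for the second. The median log2 ratio of the first list was -0.31 in Ins(CBS5-10) and -1.75 to -0.82 in the other lines. For the second list it was -1.15 in Ins(CBS5-10) and -2.06 to -1.33 in the others. Fewer cells of a type and less RNA per cell cannot be told apart in these bulk libraries.

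In the sentences that give 5 values, the lines stand in the order Del(i9-13), Ins(CBS5-10), Ins:Del(CBS8-10), Inv clone 1 and Inv:Del(CBS7-10). T, the T-box factor Brachyury of the tailbud, was at 65.4, 77.8, 68.6, 83.6 and 54.8 CPM at 120h. At 144h T was at 9.39, 38.9, 16.5, 24.97 and 14.3 CPM. All 144h libraries lay below all 120h libraries, and Ins(CBS5-10) kept the highest level. T changed by -1.89 ± 0.22 on the log2 scale (SE, adjusted p = 0.00106, and 0.0387 without Inv clone 1). Fgf8, a ligand made in the tailbud, was at 37.6, 43.9, 40.8, 43.2 and 38.2 CPM at 120h and at 9.96, 20.8, 9.49, 14.96 and 12.4 CPM at 144h. The 120h libraries lay close together, and at 144h Ins(CBS5-10) was again the highest. The log2 change of Fgf8 was -1.64 ± 0.15 (adjusted p = 0.000288). Cyp26a1, which breaks down retinoic acid, changed by -1.55 ± 0.20 and Evx1, a homeobox factor, by -1.62 ± 0.28. The caudal factors Cdx1, Cdx2 and Cdx4 changed by -2.15, -0.87 and -0.94, and the ligand Wnt3a by -1.96. Without Inv clone 1, Cdx2, Cdx4 and Wnt3a were not called (adjusted p = 0.0788, 0.195 and 0.0922). Sp8 and Gdf11 were the 2 members of the list that rose, by 0.49 and 0.31.

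Dll3, a Notch ligand of the segmentation clock, was at 49.6, 55.7, 56.2, 52.1 and 49.5 CPM at 120h and at 9.39, 20.9, 13.6, 14.7 and 13.0 CPM at 144h. Its log2 change was -1.92 ± 0.13 (adjusted p = 0.000115), and the stages did not overlap. Pcdh19, a protocadherin, was at 108 to 151 CPM at 120h and at 15.9 to 38.2 CPM at 144h, a change of -2.42 ± 0.14. Msgn1, Tbx6 and Ripply2, factors of presomitic mesoderm and of the somite boundary, changed by -3.76, -3.52 and -3.49, and Hes7, the oscillating repressor of the clock, by -2.71. The member that rose was Hes5, a Notch response gene that neural progenitors also use, from 12.9 ± 1.14 CPM to 54.8 ± 15.2 CPM (mean ± SD, n = 5 libraries). Hes1, Lfng, Nrarp, Pcdh8 and Dkk1 did not pass the test.

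FGF ligands and response genes fell more often than they rose. Of 24 tested ligands, receptors and response genes, 16 were lower and 3 were higher, and without Inv clone 1 12 were lower and 3 higher. The median log2 ratio of the list was -0.25 in Ins(CBS5-10) and -1.25 to -0.89 in the other lines. The ligands Fgf3, Fgf4, Fgf8, Fgf9, Fgf15, Fgf17 and Fgf18 fell, with log2 changes from -1.11 to -2.29. The response genes Dusp6, Etv4, Etv5, Spry4 and Il17rd fell by 1.05, 1.61, 1.10, 1.40 and 1.2 on the log2 scale. Fgf17, Etv4, Etv5 and Il17rd were not called without Inv clone 1 (adjusted p = 0.122, 0.0647, 0.153 and 0.0927). The 3 that rose were the receptors Fgfr3 and Fgfr2 and the ligand Fgf5. Fgfr3 was at 5.18, 4.37, 4.504, 5.97 and 6.11 CPM at 120h and at 42.9, 31.3, 57.1, 36.9 and 50.2 CPM at 144h. Its log2 change was 3.04 ± 0.15 (adjusted p = 3.47e-05), and every 144h library was above every 120h library.

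Somite genes fell more often than they rose. Of 19 somite and sclerotome regulators, 10 were lower and 4 were higher, and without Inv clone 1 10 were lower and 5 higher. Meox1, a homeobox factor of somites, was at 529, 594, 589, 558 and 578 CPM at 120h and at 247, 324, 259, 312 and 226 CPM at 144h, a log2 change of -1.07 ± 0.09. Foxc2, a forkhead factor of somites, changed by -1.27 ± 0.08. Sox9, the cartilage factor that neural progenitors and glia also express, rose by 1.32 ± 0.10, and Sox5 by 1.40 ± 0.11. Of 15 cartilage and tendon genes 7 were higher and 3 were lower, among them Col9a1 at 1.71 ± 0.21 and Fmod at -1.54 ± 0.21, and without Inv clone 1 7 were higher and 4 lower. Col3a1, a fibrillar collagen, was at 24.05, 19.8, 47.8, 22.6 and 44.1 CPM at 120h. At 144h Col3a1 was at 258, 289, 308, 652 and 320 CPM. The stages did not overlap, and Inv clone 1 stood above the other lines at 144h. The log2 change of Col3a1 was 3.52 ± 0.31, and 3.16 ± 0.26 without Inv clone 1.

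**Figure D2:**
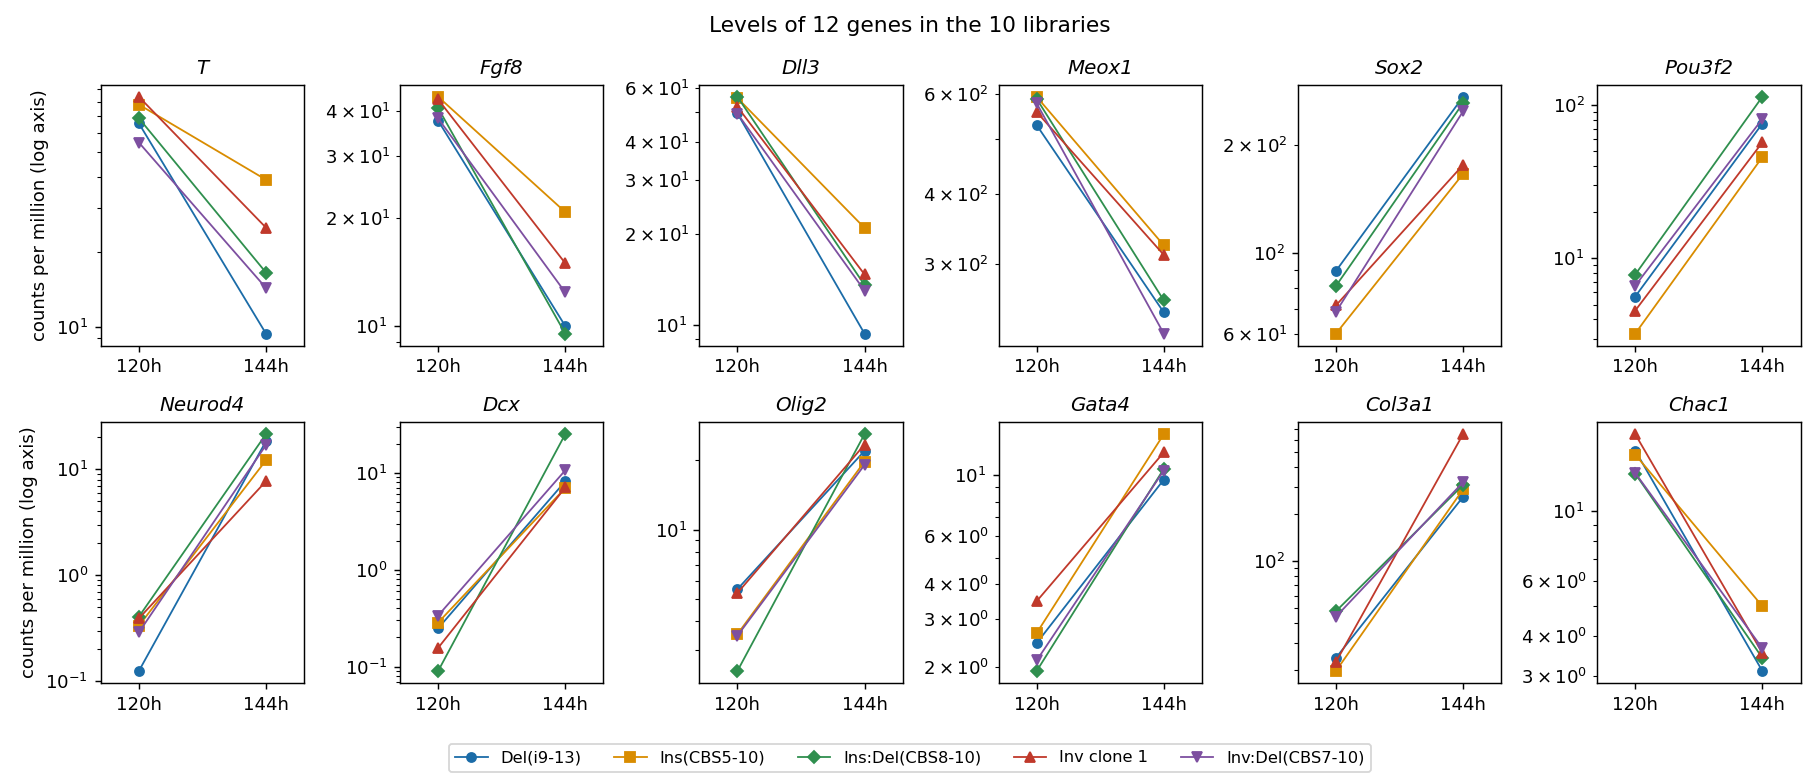
Levels in CPM (log axis, scaled to each gene) of 12 genes in the 10 libraries, with 1 marker and colour per line and lines joining the 2 stages. T, Fgf8, Dll3, Meox1 and Chac1 fell and the other 7 rose in all 5 lines, and Ins(CBS5-10) kept the highest T at 144h, 38.9 CPM.

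Neural genes rose. Of 29 neural progenitor genes 22 were higher and 4 were lower, with a median log2 change of 1.90, and without Inv clone 1 22 were higher and 3 lower. The POU factors led the list. Pou3f2 was at 5.64, 3.23, 7.84, 4.57 and 6.63 CPM at 120h and at 75.6, 45.7, 113, 57.0 and 81.1 CPM at 144h. Its log2 change was 3.73 ± 0.08 (adjusted p = 7.04e-07), and its log2 ratios in the 5 lines had an SD of 0.105. Among genes with at least 10 CPM on average and a 2-fold change, Pou3f2 was 1 of the 8 most even over the lines, with Mylk, Tmem98, Jun, Cdh6, Ptprd, Nuak1 and Mycl. Pou3f3 was at 2.36, 1.71, 5.04, 3.51 and 4.13 CPM at 120h and at 62.2, 36.9, 80.8, 56.3 and 77.5 CPM at 144h. The line with the lowest Pou3f2 and Pou3f3 at both stages was Ins(CBS5-10) and the highest was Ins:Del(CBS8-10). Sox2, kept in neural progenitors, rose from 74.3 ± 11.4 to 224 ± 49.6 CPM, Sox1 from 17.3 ± 3.66 to 65.3 ± 13.6 CPM, and Sox21 from 12.7 ± 2.85 to 66.3 ± 16.8 CPM. Each of the 3 had no overlap between the stages.

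Proneural factors rose. Of 17 tested proneural and early neuron factors 13 were higher and 1 was lower, with a median log2 change of 4.36, and without Inv clone 1 15 were higher and 1 lower. With a minimum count of 50, which removes the weakest members, the median was 2.28, so the higher value rests on members near the floor at 120h. Neurod4 was at 0.124, 0.333, 0.405, 0.390 and 0.288 CPM at 120h and at 18.5, 12.2, 21.5, 7.72 and 17.0 CPM at 144h. All lines were near the level of a few counts at 120h, and Inv clone 1 had the lowest level at 144h. Neurog2, a proneural factor, rose from 1.28 ± 0.50 to 18.3 ± 4.60 CPM and Neurog1 from 0.227 ± 0.13 to 8.57 ± 3.64 CPM. Insm1, of newborn neurons, rose from 0.398 ± 0.047 to 9.15 ± 6.57 CPM. Nhlh1 and Nhlh2, factors of newborn neurons, stood at 0.128 and 0.111 CPM on average at 120h, about the level of 3 counts, and at 9.13 and 4.46 CPM at 144h. Ebf3, a factor of later neurons, fell by 0.50, and Ebf1, Ebf2 and Hes6 did not pass the test.

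Genes of the neuron cytoskeleton and of secretion rose with them, and genes for synapses mostly did not pass the test. Of 36 neuron cytoskeleton and secretion genes, 28 were higher and 0 were lower, and without Inv clone 1 29 were higher and 2 lower. Elavl3, an RNA-binding protein of early neurons, was at 0.912, 1.28, 1.85, 0.897 and 1.3 CPM at 120h and at 18.1, 14.7, 37.5, 31.9 and 19.3 CPM at 144h. Dcx, a microtubule protein of migrating neurons, was at 0.0901 to 0.336 CPM at 120h and at 8.19, 6.99, 25.1, 7.07 and 10.6 CPM at 144h. Ins:Del(CBS8-10) had the highest Elavl3 and Dcx at 144h. Tubb3, the neuronal tubulin, rose from 10.5 ± 1.54 to 45.5 ± 13.7 CPM. Of 29 genes of synapses, transmitters and channels, 2 were higher and 3 were lower, with a median log2 change of 0.03, and without Inv clone 1 5 were higher and 6 lower. The 2 that rose were Syt11, at 1.27 ± 0.12, and Slc18a3, the vesicular acetylcholine transporter, at 1.40 ± 0.27. Of 37 axon guidance genes 16 were higher and 4 were lower, led by the netrin receptor Unc5a at 3.57 ± 0.18, and without Inv clone 1 20 were higher and 6 lower. Of 27 neuronal and alternative splicing regulators 12 were higher and 0 were lower (16 and 2 without Inv clone 1), among them Srrm4 at 2.73 ± 0.21 and Nova2 at 1.83 ± 0.16. Celf3, of the same list, rose from 0.135 ± 0.10 to 5.38 ± 2.14 CPM. The median of that list was 0.34 to 0.56 in 4 lines and 0.01 in Inv clone 1.

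Factors of particular neural tube domains rose in part. Of 20 spinal neuron identity factors 9 were higher and 3 were lower (9 and 4 without Inv clone 1), with Prdm8, Lhx3, Lhx4 and Prdm12 first. Olig2, a factor of motor neuron progenitors, was at 5.51, 3.52, 2.43, 5.31 and 3.46 CPM at 120h and at 22.0, 19.8, 26.03, 23.4 and 19.1 CPM at 144h. The log2 change of Olig2 was 2.47 ± 0.20 (adjusted p = 0.000176). Nkx6-1, of the ventral neural tube, rose by 1.94 ± 0.16 and Nkx2-2 by 2.37 ± 0.27. Dorsal and crest genes went both ways: Zic1 rose by 2.52 ± 0.25 and Ednrb, the endothelin receptor of crest cells and neural progenitors, by 3.28 ± 0.18, while Pax3 fell by 1.36 on the log2 scale. Of 17 glia genes 7 were higher and 3 were lower, with a median of 0.19, and without Inv clone 1 8 were higher and 4 lower. Fabp7 and Slc1a2, genes of radial glia and astrocytes, rose by 2.58 ± 0.14 and 2.15 ± 0.20, and Pdgfra, a growth factor receptor of mesenchyme and of oligodendrocyte precursors, fell by 0.77 on the log2 scale.

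A set of 9 genes went from at most 3 counts in every 120h library to at least 1 CPM in every 144h library, and 0 genes did the reverse. They were Glra1, Myt1, Sst, Scrt2, Ghrl, St18, Clvs1, Lhx3 and Hk3. Sst, the peptide hormone somatostatin, had 1 count over the 5 libraries at 120h and lay at 1.86 to 3.10 CPM at 144h. Ghrl, the precursor of ghrelin, had 5 counts at 120h and lay at 1.82 to 4.35 CPM at 144h. Glra1, a glycine receptor subunit, had 2 counts at 120h and lay at 2.01 to 3.79 CPM at 144h. Lhx3, a factor of motor neurons and ventral interneurons, had 5 counts at 120h and lay at 1.78 to 3.81 CPM. No fold change is given for these, since all their 120h libraries were at or under 3 counts.

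Outside the lists, the genes of at least 1 CPM with the greatest fitted rise, called and in all 5 lines, were Sst, Glra1, Ghrl, Ptpn5, Chl1, Gja5, Esm1, Pdzph1, C1qtnf3, Pantr1, Megf10, Irs4, Rgs8, Pou3f4 and Sox2ot. The place of Sst, Glra1 and Ghrl in that order is set by 120h levels at or under 3 counts. Chl1, an adhesion molecule of growing axons, rose from 0.854 ± 0.66 to 18.5 ± 16.7 CPM. Megf10, a scavenger receptor of glia and muscle precursors, rose from 0.924 ± 0.33 to 13.6 ± 4.77 CPM, and Irs4, an insulin receptor substrate, from 1.94 ± 0.51 to 26.2 ± 7.25 CPM. Gja5, a gap junction protein of arteries and heart, rose from 0.346 ± 0.13 to 6.79 ± 3.49 CPM, and Esm1, a gene of endothelial tip cells, from 0.403 ± 0.35 to 7.14 ± 1.97 CPM. The genes with the greatest called fall were Adgrd1, Pglyrp3, Npbwr1, Tll2, Gpat3, Slc13a4, Mixl1, Prph, Slc7a14, Insrr, Ppef2, Coch, Grin2c, Dmrt2 and Kcna2. Dmrt2, a factor of the dermomyotome, fell from 82.0 ± 9.78 to 20.1 ± 5.23 CPM, and Insrr, an insulin receptor relative, from 17.6 ± 3.12 to 3.84 ± 1.38 CPM. Mixl1, a factor of the primitive streak, fell from 2.15 ± 1.39 to 0.479 ± 0.56 CPM. Of these 15, Grin2c alone was not called without Inv clone 1 (adjusted p = 0.0629).

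Of 557 tested genes with a microRNA hairpin inside their span, on either strand, 60 were higher and 39 were lower, shares near the 9.25% and 5.94% of all genes tested. Of the 33 among them that RefSeq types as lncRNA or miRNA, 8 were higher and 3 were lower. Those described were chosen after their values were seen. These libraries do not measure mature microRNAs, so the values are those of the host genes. The mature sequences held by the lncRNA hosts that rose and that carry microRNAs known from neural or mesenchymal tissue are given here from RefSeq (GRCm38.p6), 5′ to 3′, with the seed, bases 2 to 8, in capitals. All 6 seeds differ.
mmu-miR-9-5p: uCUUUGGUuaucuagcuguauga
mmu-miR-125b-5p: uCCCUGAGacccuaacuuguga
mmu-miR-100-5p: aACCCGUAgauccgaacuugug
mmu-miR-129-5p: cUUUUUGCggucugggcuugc
mmu-miR-199a-3p: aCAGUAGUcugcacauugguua
mmu-miR-214-3p: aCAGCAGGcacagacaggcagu
In that order they lie at chr13:83738821-83738843, chr9:41581940-41581961, chr9:41531437-41531458, chr2:94241419-94241439, chr1:162217883-162217904 and chr1:162223438-162223459. The miR-129-5p sequence is on the minus strand and the others on the plus strand.

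C130071C03Rik on chromosome 13, whose span holds Mir9-2, was at 0.788, 0.428, 0.405, 0.351 and 0.385 CPM at 120h and at 3.28, 3.71, 16.5, 1.41 and 6.47 CPM at 144h. The stages did not overlap, but the 144h levels ran from 1.41 CPM in Inv clone 1 to 16.5 CPM in Ins:Del(CBS8-10). Mir100hg on chromosome 9, with Mir100, Mirlet7a-2 and Mir125b-1, was at 0.871 to 1.80 CPM at 120h and at 4.34, 5.33, 5.33, 3.21 and 5.40 CPM at 144h. Dnm3os on chromosome 1, with Mir199a-2 and Mir214, a mesenchymal gene, was at 0.663 to 2.16 CPM at 120h and at 6.47, 13.1, 11.5, 5.11 and 7.98 CPM at 144h. The 3 host genes changed by 3.38 ± 0.47, 1.72 ± 0.18 and 3.05 ± 0.24 on the log2 scale. Mir670hg, with Mir129-2, rose from 0.289 ± 0.11 to 1.02 ± 0.39 CPM. Mir124-2hg was at 1.99, 0.760, 1.26, 1.79 and 2.40 CPM at 120h and at 14.1, 10.0, 23.6, 11.4 and 21.4 CPM at 144h, a change of 3.27 ± 0.23 (adjusted p = 0.000115). The 3 lncRNA hosts that fell were Rian, Mirg and Gm29695, and Rian and Mirg, neighbouring imprinted genes, changed by -0.39 and -0.29. The gene 6720427I07Rik, which has no type in the table and whose span holds Mirlet7d, Mirlet7f-1 and Mirlet7a-1, also fell (-0.83 ± 0.20, adjusted p = 0.0282). Mir17hg, the host of the Mir17 cluster, averaged 30.8 CPM at the earlier stage and 26.4 CPM at the later one, and did not pass the test.

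Hox genes changed by paralog group. Of 8 tested genes of groups 1 to 3, 4 were lower and 0 higher. Of 10 genes of groups 4 to 6, 7 were higher and 0 lower, of 9 genes of groups 7 to 9, 5 were higher and 0 lower, and of 5 genes of groups 10 to 13, 4 were higher and 0 lower. Without Inv clone 1 the counts were 5 lower of the first groups, 6 higher and 1 lower of the next, and 5 and 4 higher of the last, with the other directions at 0. The genes called lower in that setting alone were Hoxb2 and Hoxb4. The median log2 change was -0.41, 0.43, 0.41 and 2.30 in that order. Hoxb1 and Hoxd1 fell by 1.04 and 1.12 on the log2 scale. Hoxa10, Hoxc10 and Hoxd10 rose by 2.04 ± 0.20, 2.30 ± 0.23 and 2.61 ± 0.49, and Hoxa11 rose from 0.0998 ± 0.087 to 2.00 ± 0.86 CPM. A run of 6 neighbours on chromosome 6, Hoxa5, Hoxa6, Hoxa7, Hoxa9, Hoxa10 and Hoxa11, was called higher (chr6:52201754-52245810, mm10), the longest run of neighbours called in 1 direction among the genes tested. Antisense genes lie among the Hox genes, and the sources used here do not say whether counting used strand, so reads of such pairs cannot be told apart.

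**Figure D3:**
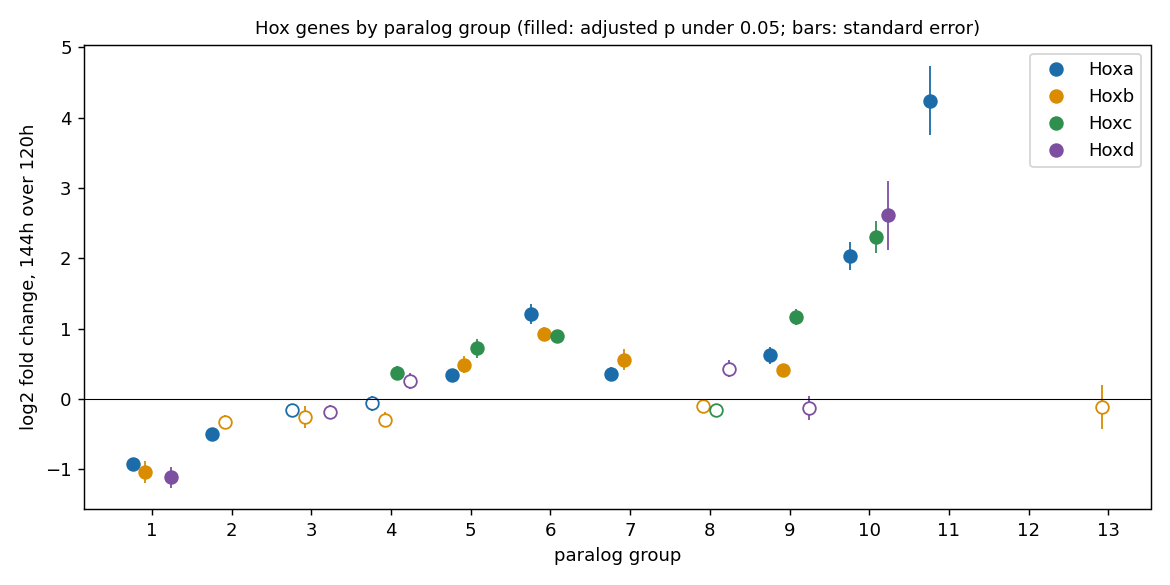
Log2 fold change of 144h over 120h (vertical axis) of 32 tested Hox genes by paralog group (horizontal axis), coloured by cluster, with standard errors; filled points have an adjusted p under 0.05. Groups 1 and 2 lie below 0, groups 5 and 6 above 0, and groups 10 and 11 highest, up to Hoxa11, while Hoxb13 lies at -0.11.

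Within HoxB, Hoxb1 was at 41.1, 41.7, 40.9, 40.6 and 35.3 CPM at 120h and at 18.7, 28.0, 19.5, 12.2 and 21.4 CPM at 144h. It was lower at 144h in all 5 lines (log2 change -1.04 ± 0.16, adjusted p = 0.00363). Hoxb6 was at 7.34, 6.65, 9.10, 7.06 and 6.06 CPM at 120h and at 12.1, 13.0, 16.9, 12.7 and 14.03 CPM at 144h, a change of 0.93 ± 0.10 with no overlap of the stages. Hoxb9 was at 167, 158, 245, 173 and 156 CPM at 120h and at 199, 238, 290, 215 and 249 CPM at 144h. Its stages overlapped because Ins:Del(CBS8-10) was high at 120h, and all 5 lines rose (0.41 ± 0.08, adjusted p = 0.0125). Hoxb5 and Hoxb7 rose by 0.49 ± 0.12 and 0.56 ± 0.15, and Hoxb2, Hoxb3, Hoxb4 and Hoxb8 did not pass the test. Hoxb13 was at 33.0, 0.285, 0.631, 0.429 and 5.14 CPM at 120h and at 16.3, 0.393, 1.07, 0.925 and 4.88 CPM at 144h. The spread over the lines was wider than the difference between the stages. Its log2 change was -0.11 ± 0.31 (adjusted p = 0.841, and -0.45 with adjusted p = 0.248 without Inv clone 1). Del(i9-13) was highest at both stages, Inv:Del(CBS7-10) was next, and the other 3 lines lay between 0.285 and 1.07 CPM. Hoxb13 was the single tested gene of groups 10 to 13 that was not called.

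**Figure D4:**
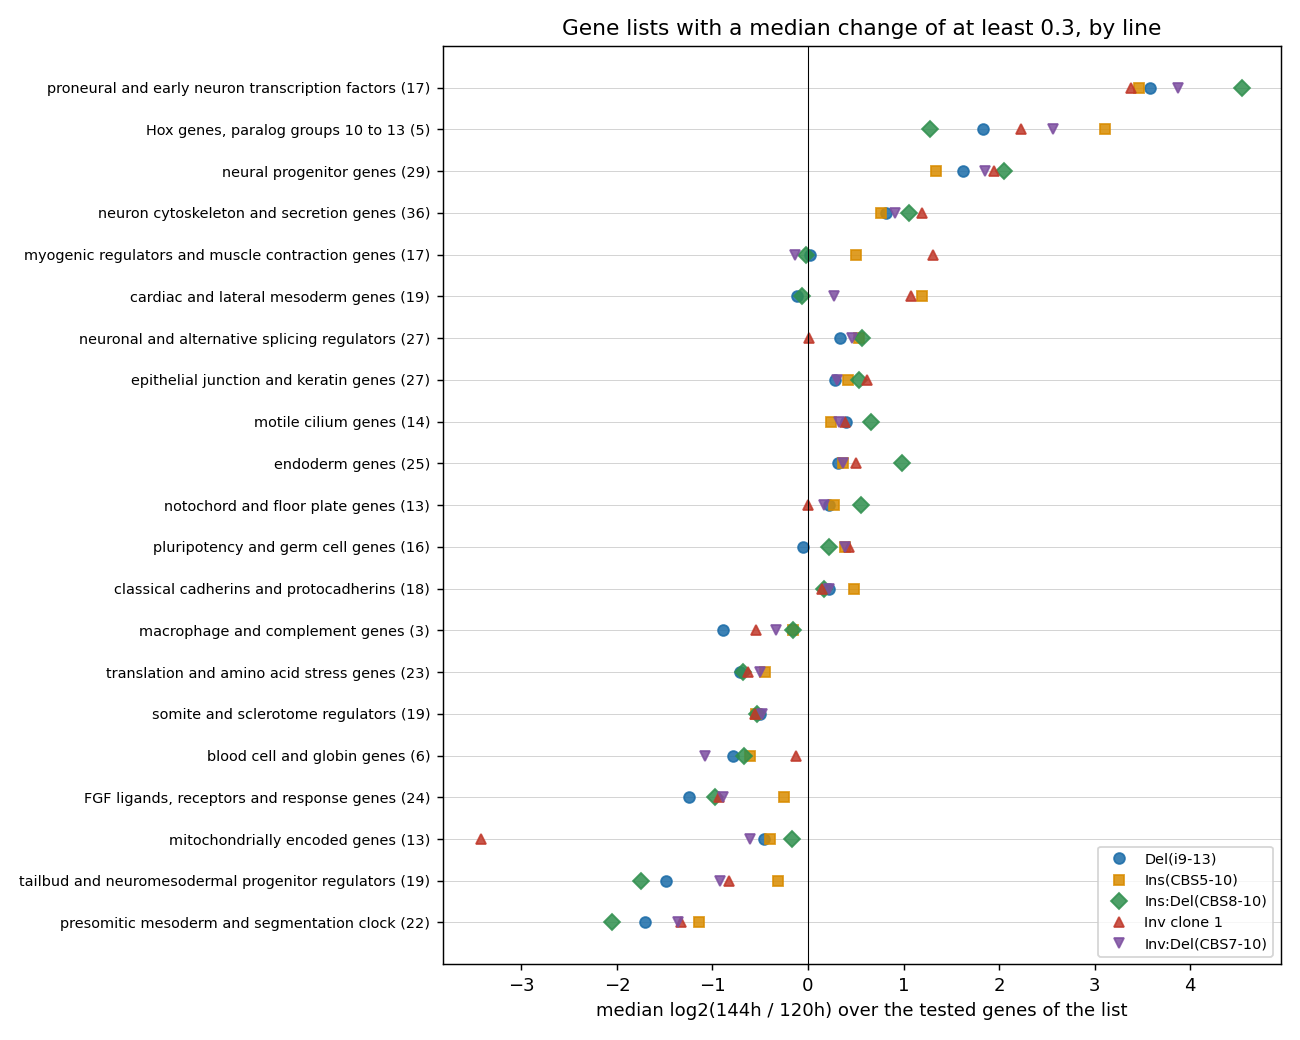
Median log2 ratio of 144h to 120h (horizontal axis) over the tested genes of each list (rows, number of genes in parentheses) in each of the 5 lines (markers), for the lists whose median fold change was at least 0.3 in either direction. Proneural factors lie highest and presomitic genes lowest apart from the mitochondrially encoded genes of Inv clone 1, at -3.42, and the muscle and cardiac lists lie between 0.50 and 1.31 in Ins(CBS5-10) and Inv clone 1 and between -0.14 and 0.27 in the other 3 lines.

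Genes of heart and muscle contraction were uneven over the lines. Tnnt2, cardiac troponin T, was at 0.829, 4.47, 0.856, 0.975 and 2.45 CPM at 120h and at 2.04, 33.6, 0.841, 123 and 1.501 CPM at 144h. Myh6, the atrial myosin heavy chain, was at 0.946 to 1.76 CPM at 120h and at 1.11, 30.2, 0.0467, 64.8 and 0.657 CPM at 144h. Both were highest at 144h in Ins(CBS5-10) and Inv clone 1. In the other 3 lines they lay at 2.04 CPM or below at 144h, with Tnnt2 in Del(i9-13) above its 120h level. Tnnt2 and Myh6 did not pass the test over lines (adjusted p = 0.165 and 0.252, and 0.344 and 0.611 without Inv clone 1), and with Myh7 and Actc1 they were 4 of the 8 most uneven genes. Ttn, titin, was at 0.166, 2.95, 0.0450, 0.156 and 0.0481 CPM at 120h and at 0.753, 21.4, 0.981, 12.2 and 1.03 CPM at 144h. Ttn rose in all 5 lines (3.76 ± 0.51, adjusted p = 0.00207), and by 2.96 ± 0.27 without Inv clone 1. The stages overlapped, 2 of the 120h libraries were under the level of 3 counts, and Ins(CBS5-10) stood above the other lines at both stages. Of 17 muscle genes 4 were higher and 2 lower, and of 19 cardiac and lateral mesoderm genes 5 were higher and 2 lower. These counts were 3 and 4 for the muscle list and 5 and 3 for the cardiac list without Inv clone 1. Gata4, a factor of heart and gut mesoderm and of endoderm, was even over the lines, from 2.45, 2.66, 1.94, 3.47 and 2.12 CPM at 120h to 9.61, 14.1, 10.5, 12.1 and 10.4 CPM at 144h. Its log2 change was 2.17 ± 0.14 (adjusted p = 7.91e-05).

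Endoderm and epithelial genes rose more often than they fell. Of 25 endoderm genes 12 were higher and 5 were lower, and without Inv clone 1 14 and 3. Of 27 epithelial junction and keratin genes 10 were higher and 1 was lower, and without Inv clone 1 16 and 1. Onecut1, a liver and neuron factor, rose from 1.39 ± 0.45 to 10.2 ± 2.87 CPM, and the keratin Krt8 from 30.8 ± 6.56 to 64.7 ± 22.98 CPM. Cer1, a secreted inhibitor made in early endoderm and in new somites, was at 16.6 to 20.8 CPM at 120h and at 1.59, 6.03, 1.73, 2.94 and 2.53 CPM at 144h. Cer1 changed by -2.83 ± 0.28, and Sox17, of early endoderm and endothelium, fell by 0.96 on the log2 scale. Endothelial genes went both ways, with 4 of 24 higher and 5 lower (5 and 7 without Inv clone 1). Pecam1, an adhesion molecule of mature endothelium, was at 3.28, 4.18, 3.02, 4.41 and 4.57 CPM at 120h and at 9.34, 18.2, 8.04, 16.8 and 11.7 CPM at 144h. Etv2, the factor that starts the endothelial and blood lineages, fell from 5.81 ± 1.56 to 1.86 ± 0.61 CPM. Of 20 blood cell and globin genes 6 could be tested, of which 3 were lower, Lmo2, Tal1 and Itga2b, and without Inv clone 1 4 were lower. Of 19 macrophage and complement genes 3 could be tested, of which 1 was higher and 1 lower.

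Other signalling pathways changed member by member. Of 30 Wnt genes 7 were higher and 10 were lower, with Wnt7a, a ligand of the neural tube, at 3.59 ± 0.25 and Lef1, a transcription factor and target of the pathway, at -1.65 ± 0.12. The secreted inhibitors Sfrp1 and Sfrp2 rose by 1.02 ± 0.09 and 1.34 ± 0.10. Of 20 Notch genes 7 were higher and 4 were lower, of 24 BMP and TGF-beta genes 5 were higher and 3 lower, and of 16 hedgehog genes 5 were higher and 4 lower. The counts higher and lower without Inv clone 1 were 8 and 11 for Wnt, 8 and 5 for Notch, 9 and 3 for BMP and TGF-beta, and 6 and 5 for hedgehog genes. Among BMP response genes Id1, Id3 and Id4 rose by 0.74 ± 0.10, 1.03 ± 0.12 and 1.84 ± 0.15, while the inhibitor Fst fell by 1.55 on the log2 scale. In the retinoic acid list 5 of 14 were higher and 5 lower (5 and 6 without Inv clone 1). Crabp2, a retinoic acid binding protein, was at 153, 107, 124, 131 and 123 CPM at 120h and at 484, 287, 412, 451 and 462 CPM at 144h. Aldh1a2, the enzyme that makes retinoic acid in somites, fell from 80.8 ± 20.02 to 40.6 ± 5.56 CPM.

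Genes of the amino acid stress response fell. Of 23 translation and amino acid stress genes 15 were lower and 0 higher, and without Inv clone 1 18 and 0. Chac1, a glutathione-degrading enzyme of this response, was at 15.5, 15.1, 13.1, 17.5 and 13.2 CPM at 120h and at 3.10, 4.98, 3.41, 3.54 and 3.66 CPM at 144h. The log2 change of Chac1 was -2.0 ± 0.14 (adjusted p = 0.000109), with no overlap of the stages. Trib3, Slc7a3 and Mthfd2 changed by -1.52 ± 0.11, -1.75 ± 0.18 and -0.64 ± 0.07, while Atf4 itself, the factor that drives the response, changed by -0.12 and did not pass the test. Of 18 unfolded protein response genes 1 was higher and 1 was lower, and without Inv clone 1 6 were higher and 1 lower.

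Of 19 heterochronic RNA-binding and growth genes, which act on developmental timing, 3 were higher and 7 were lower, and without Inv clone 1 3 and 10. Lin28a, an RNA-binding protein that blocks let-7 microRNAs, fell from 539 ± 12.7 to 416 ± 70.6 CPM. Of 16 pluripotency and germ cell genes 2 were higher and 0 lower, near the 9.25% and 5.94% of all genes, and without Inv clone 1 3 of 13 were higher and 0 lower. Of 14 motile cilium genes 6 were higher and 0 lower, against 7 higher and 2 lower without Inv clone 1.

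Growth and housekeeping lists showed small changes. Of 40 DNA replication and mitosis genes 2 were higher and 0 were lower, with a median log2 change of -0.01, and without Inv clone 1 10 were higher and 3 lower. Ccnd2, a cyclin of G1, was at 619, 551, 538, 611 and 610 CPM at 120h and at 1245, 964, 1125, 1236 and 1175 CPM at 144h. Ccnd2 and the imprinted gene Peg10 were among the 8 genes with the greatest rise in mean CPM. Peg10 was at 576 to 700 CPM at 120h and at 1452, 1495, 1598, 1069 and 1510 CPM at 144h, lowest in Inv clone 1, whose ISML_third library at 144h had 1635 CPM. Of 43 cytosolic ribosomal protein genes 6 were lower, and without Inv clone 1 40 were lower, with 0 higher in both, and the median change was -0.11 with and -0.19 without that line. Their median ratio was 0.23 in Inv clone 1 and -0.25 to -0.13 in the other 4 lines. Of 32 ribosome biogenesis genes 2 were lower, and 24 without Inv clone 1, and of 24 cholesterol synthesis genes 0 were called, and without Inv clone 1 14 were higher and 1 lower. The counts for these 3 lists thus rest on whether that line is included. By an unadjusted p under 0.05 over all 5 lines, 4311 of the 15011 genes passed.

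Mitochondrially encoded genes had median ratios below 0 in all 5 lines, at -3.42 in Inv clone 1 and -0.61 to -0.17 in the other 4. mt-Co1, a subunit of cytochrome oxidase, was at 3447, 3948, 4114, 4242 and 3595 CPM at 120h and at 2546, 3002, 3660, 395 and 2493 CPM at 144h. mt-Co1 did not pass the test over 5 lines (adjusted p = 0.233), and without Inv clone 1 it changed by -0.39 with an adjusted p of 0.000738. Of 13 such genes 2 were lower, and 8 without Inv clone 1. Of 40 nuclear genes of the respiratory chain 1 was higher and 0 were lower, and without Inv clone 1 1 and 4. In the other 144h library of Inv clone 1, with the label ISML_third, mt-Co1 was at 3922 CPM, so the low value belongs to 1 library of that line and not to both.

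Long genes were called higher more often than short ones. The genomic span of a gene, from the deposited coordinates (mm10), had a median of 20.7 kb over all genes tested, 41.3 kb over genes called higher and 27.5 kb over genes called lower. Of the 1501 genes with the longest spans, from 123 kb up, 20.9% were called higher and 9.59% lower. Of the 1502 with the shortest spans, up to 2.42 kb, 3.40% were called higher and 2.86% lower. Without Inv clone 1 the shares called higher were 29.1% and 4.93%, and those called lower 17.3% and 8.59%. The share was also read within classes of the level at 120h. Of genes with spans over 100 kb and of the others, the shares called higher were 24.1% and 11.1% at 1 to 10 CPM, 17.2% and 5.72% at 10 to 100 CPM, and 7.41% and 3.15% above 100 CPM. Genes under 1 CPM at 120h are left out of these classes of level, since many pass the filter through their 144h level. They remain in the medians and shares by span above, and 17.1% of them were called higher. What else long genes share, such as expression in neurons, was not tested.

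**Figure D5:**
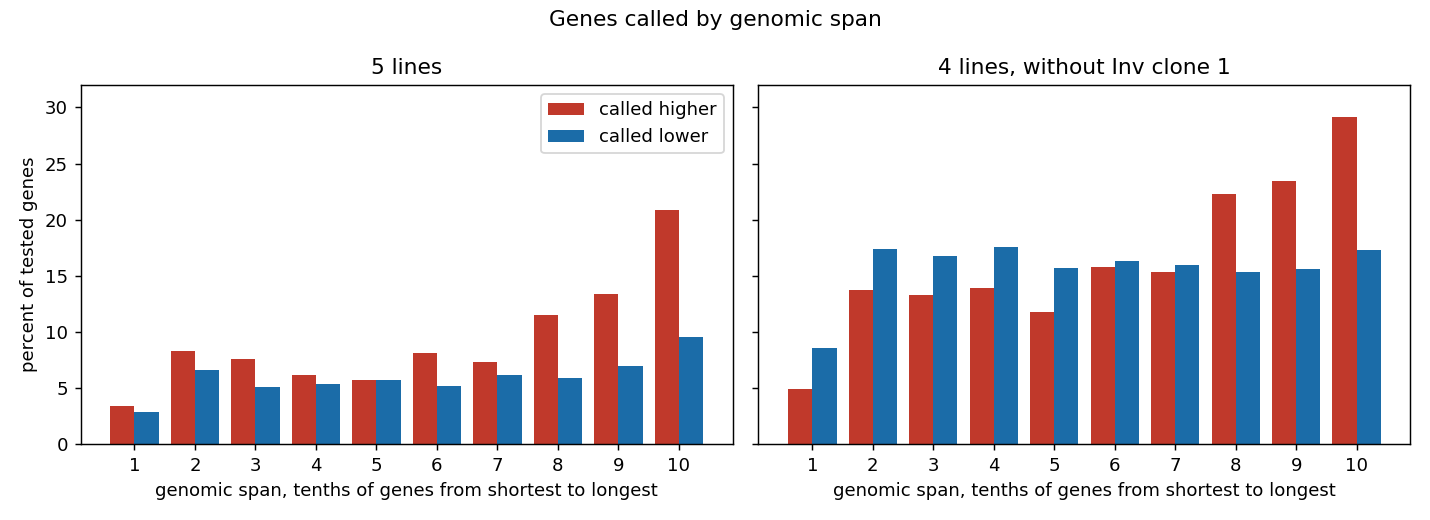
Percent of tested genes called higher (red) and lower (blue) at 144h (vertical axis, from 0) in each of 10 classes of genes of equal size by genomic span, shortest to longest (horizontal axis), with 5 lines on the left and without Inv clone 1 on the right. The share called higher goes from 3.40% in the first class to 20.9% in the last.

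Promoter letters were read for the changed genes and for all genes tested. A RefSeq promoter, 250 bases before to 50 after the start, was matched by symbol for 10831 of the tested genes (72.2%). The letters TATAAA, searched on both strands, stood in 6.56% of these, in 12.5% of those of genes called higher at least 2-fold and in 13.4% of those called lower at least 2-fold, against 14.2% of all 27025 promoters in the table. The E-box CAGCTG, which reads the same on both strands, stood in 14.7% of the tested genes' promoters, in 17.7% for genes called higher and in 17.7% for genes called lower. CG dinucleotides numbered 21 per promoter in the median over tested genes. They numbered 17 for genes called higher at least 2-fold and 13 for those called lower at least 2-fold. Over all genes called higher and lower, CG dinucleotides numbered 20 and 18, and TATAAA stood in 9.09% and 8.46%. Without Inv clone 1 the genes called higher and lower had 22 and 21 CG dinucleotides. In that setting TATAAA stood in 7.6% and 6.95%, and CAGCTG in 16.3% and 14.5%. The genes called at least 2-fold had low levels at 120h, with medians of 1.31 and 4.13 CPM against 22.3 CPM over all tested. Promoters were not compared within classes of level. Such matches are descriptions of these windows.

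The same step could be read in libraries that the comparison did not use. Inv clone 1 also has 1 library each at 96h, 120h, 144h and 168h with the label ISML_third. From 120h to 144h in these, 93.6% of the genes called higher had a higher level at 144h and 88.9% of those called lower had a lower one, against 50.5% and 49.3% of all genes tested. The median log2 ratio was 0.89 for the first and -0.65 for the second. From 144h to 168h, 82.3% of the genes called higher had a higher level still and 60.1% of those called lower a lower one. From 96h to 120h the shares were 57.1% and 59.3%. These 3 steps share libraries with each other and have no replicates. Across the 15011 genes the ISML_third ratios of 144h to 120h had an r of 0.682 with the mean of the 4 lines other than Inv clone 1, and of 0.498 with the ISML_second ratios of Inv clone 1 itself. Fgf8 was at 21.9 CPM at 96h, 5.92 CPM at 120h and 1.92 CPM at 144h. The ISML_second library of the same line at 120h had 43.2 CPM of Fgf8. The 5.92 CPM also lay below the 144h levels of the 5 lines, 9.49 to 20.8 CPM. Pou3f2 was at 0.330, 3.76 and 62.4 CPM at 96h, 120h and 144h. T was at 165, 42.0 and 10.4 CPM. Not every gene repeated. Sst was at 0.0457 CPM at 144h in these libraries and at 2.53 CPM at 168h, and Ghrl was at 0.0457 and 0.285 CPM, although they were at 1.82 CPM or more in each of the 5 lines at 144h. Chac1 went from 2.79 to 2.2 CPM over this step in these libraries, already near the 144h level of the 5 lines. Gata4 was at 0.530 and 0.777 CPM, and Tnnt2 at 1.11 and 1.69 CPM, where the ISML_second library of the same line had 123 CPM at 144h.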

How the data were processed

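RNA was measured in whole gastruloids. Per the submitters' processing notes, reads were handled with cutadapt 1.18, STAR 2.7.10a and Cufflinks 2.2.1 on mm10. The authors deposited whole-number counts per gene, used for all tests, and Cufflinks FPKM values, used here for gene names and coordinates only (starts raised by 1). The 10 libraries compared were made with the ISML kit, per the labels' protocols. The 26 libraries of the series also include libraries of Inv clone 1 at 120h with the label TruSeq_second. In each of the 2 tables, columns that match no sample, 8 in all, were not used. Genes passed filterByExpr (minimum count 10). edgeR 4.0.16 fitted line and stage with TMM scaling and robust dispersion, 4 residual degrees of freedom, and Benjamini-Hochberg adjustment over all genes tested. Line differences came from all 26 libraries, with group and library label as terms. The line term pairs the 2 libraries of a line, since both come from the same cell line. Ratios per line used a prior count of 2. The fits were tested on simulated counts, in which each gene had 1 level over all lines apart from the changes set, and no library stood apart. The stage test recovered 42 of 50 genes changed 2-fold, and 7 of its 185 calls were false. Data with uneven lines were not simulated for that test.

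Named genes were the 15 highest and 15 lowest outside the lists, up to 4 per list by adjusted p, the 8 most and least even, those with the greatest CPM change, those that came on, and HoxB. Others named were chosen after their values were seen. The lists (57, with 1299 genes, 1098 tested), the rule and the comparison were chosen with earlier results of these data known. DESeq2 1.42.0 and limma-voom were alternatives. Errors are SE after a fold change and SD over libraries after a mean. Precision is that of 19942377 to 25411986 counts per library, covers counting error only, and 3 counts is the floor. Some genes are not reported here.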

Additional observations from a re-analysis of the deposited data

Results flagged for a closer look

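In 149 sets of 5 values, 1 per line, a value was singled out where its gap to the nearest of the others was over 0.71 of the whole range. Chance marks about 1 in 20 sets of independent values. In 24 of the 149 a value was marked, but the sets share the same 10 libraries and include genes named for uneven levels, so that count is not read against chance. The marked value belonged to Inv clone 1 in 12 sets, to Ins:Del(CBS8-10) in 5, to Del(i9-13) and Ins(CBS5-10) in 3 each, and to Inv:Del(CBS7-10) in 1.

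The 144h library of Inv clone 1 had a TMM scaling factor of 0.923, against 1.01 to 1.02 in the other 144h libraries, and an SD of 0.697 from the mean of the others. The correlation of the log2 ratios of Inv clone 1 with the mean of the other lines was 0.577, against 0.748 to 0.803. Its median log2 ratio was -3.42 for mitochondrially encoded genes, against -0.61 to -0.169 in the other 4 lines, 0.228 for cytosolic ribosomal protein genes, 0.205 for ribosome biogenesis genes and 0.515 for glycolysis genes. The median was 0.23 for chromatin remodelling subunits and -0.273 for imprinted growth genes in the same line. At 144h Inv clone 1 was highest for Col3a1 at 652 CPM (others 258 to 320) and for Tnnt2 at 123 CPM (others 0.841 to 33.6), and lowest for Peg10 at 1070 CPM to 3 digits.

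Ins(CBS5-10) had the lowest slope, 0.715, the highest median ratio of cadherins and protocadherins, 0.476, and the highest Ttn at 120h, 2.95 CPM. Ins:Del(CBS8-10) was highest for Dcx at 144h with 25.1 CPM, and at 120h for Hoxb9 with 245 CPM, Hoxc10 with 13.1 CPM and Dnm3os with 2.16 CPM. It also had the highest median ratio of endoderm genes, 0.98, against 0.317 to 0.505. Del(i9-13) was highest for Hoxb13 at 120h with 33.0 CPM and at 144h with 16.3 CPM, and for C130071C03Rik at 120h with 0.788 CPM. Inv:Del(CBS7-10) was lowest for Hoxb1 at 120h with 35.3 CPM, against 40.6 to 41.7 CPM.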

How the results depend on the processing

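The count of changed genes stayed within 1.5 times of 2280 under each tool, scaling and filter tried: 2544 with DESeq2, 2309 with limma-voom, 2290 with DESeq2 size factors, 2173 with total counts, 2534 with no filter on low counts, 1821 with a minimum count of 50 and 1757 in the fit of all 26 libraries. Without the line term that pairs the libraries (no replicate block) 2518 genes were called, and 93.0% of the 2280 calls were kept. Leaving out 1 line gave 1365 to 4831 changed genes, 886 to 2474 higher and 441 to 2357 lower. The highest of each came without Inv clone 1, the lowest of the first pair without Ins:Del(CBS8-10) and the lowest of the last without Del(i9-13). These settings also drop 2 of the 10 libraries, and the cause of the higher count was not tested. The share of calls that were higher was 58.5 to 61.4% over the tools, scalings, filters and sets of libraries other than left-out lines, and with a line left out it was 51.2% (Inv clone 1), 61.5% (Ins(CBS5-10)), 64.9% (Ins:Del(CBS8-10)), 67.0% (Inv:Del(CBS7-10)) and 67.7% (Del(i9-13)). Of the 2280 calls 61.8% were kept in the fit of all 26 libraries. Of the 249 named genes 0 changed direction where the main fit or the setting called them. Changes of direction in genes called by neither were not counted. In the fit of all 26 libraries 55 of the named genes lost the call. A minimum count of 50 left fewer genes in each list, moved the medians of 8 of the 57 lists and changed the sign of 4, those of macrophage (-0.42 to 0.25), neural crest (0.24 to -0.075), surface ectoderm (0.076 to -0.46) and synapse genes (0.028 to -0.17). Line differences numbered 0 in each fit tried. At these depths 3 counts stand for up to 0.163 CPM, which limits the values of genes near that level at 120h.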
